A study of Mus musculus with 6 samples.

Results

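The PLAG family of zinc-finger transcription factors was followed in testicular RNA of cadmium-exposed male mice. Members were taken by name: every listed transcript whose identifier, without its version, belongs to Plagl2, Plagl1 or Plag1 in GENCODE release M21 (build mm10). The rule found 2 transcripts of 27120, 1 of Plagl2 and 1 of Plagl1, and so 2 of 14000 genes. Of the 4 annotated Plag1 transcripts 0 matched, and Plag1 was not analysed here. The family was selected on the FPKM of Plagl2, which had already been seen to differ between these same groups, so member levels are given as descriptions, and the screen that singled out Plagl2 is given as the way it was chosen, not as a test of it.

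HFD2D males (labelled H+H+Cd) were F2 offspring whose paternal line had eaten a high-fat diet (HFD) in 2 successive generations. HFD1D males (labelled H+Cd) were F1 offspring of fathers fed that diet, thus 1 generation. Paternal feeding began at 5 weeks of age in the first generation and lasted until 15 weeks. Both groups were wild-type C57BL/6N mice and were killed at 15 weeks of age after 10 weeks with CdCl2, a cadmium salt toxic to the testis, in their drinking water. Each group had 3 libraries of poly(A) RNA from testis. Generation and diet history cannot be told apart in this design, and both groups had cadmium and a paternal HFD. HFD2D replicate 1 stood apart: its 3 listed epididymal markers summed to 96.9 FPKM, against 3.08 to 3.79 in the other 5 libraries, and its 8 listed placental markers to 169 FPKM, against 9.13 to 22.6. FPKM are fragments per kilobase of transcript and per unit of mapped library.

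PLAG proteins bind GC-rich DNA through a row of Cys-His zinc fingers near their amino terminus and switch on growth genes, of which the insulin-like growth factor gene Igf2 is the best known. PLAG1 was found as an oncogene of salivary gland adenomas, and mice without it are small and their males are subfertile. PLAGL1, also called ZAC1, is imprinted, is expressed from the paternal allele and halts cell division. PLAGL2 is the close relative of PLAG1, and newborn mice without it fail to take up dietary fat.

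The kinship of the members shows in their coding sequence. The stretch of 75 bases most alike in all 3 genes is printed here to show how near, and how far from identical, the family is. Capitals mark the 61 bases shared by all 3 genes.
Plagl2: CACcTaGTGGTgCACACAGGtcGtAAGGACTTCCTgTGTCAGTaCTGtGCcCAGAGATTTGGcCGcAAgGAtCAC
Plagl1: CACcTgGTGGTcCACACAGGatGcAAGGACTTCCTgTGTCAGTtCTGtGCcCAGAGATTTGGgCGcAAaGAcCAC
Plag1: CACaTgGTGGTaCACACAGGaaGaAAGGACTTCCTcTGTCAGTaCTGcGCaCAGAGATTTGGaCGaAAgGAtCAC
In Plagl2 this stretch is coding bases 625 to 699, in exon 3 of 3 (chr2:153232281-153232355, minus strand, mm10). In Plagl1 it is coding bases 520 to 594, in exon 6 of 6 (chr10:13127509-13127583, plus strand), and in Plag1 coding bases 607 to 681, in exon 6 of 6 (chr4:3904509-3904583, minus strand). Plagl1 shared 66 of the 75 bases with Plagl2, and Plag1 shared 64. Over whole transcripts, the longest exact run was 19 bases between Plagl2 and Plagl1 and 18 bases between Plagl2 and Plag1. Of 5436 distinct 50-base words of the Plagl2 transcript 0 occurred in any transcript of another gene in either orientation, and likewise 0 of 5015 for Plagl1. Words of that length thus told the members apart from each other and from the transcripts of all other annotated genes. Transcripts of the same gene were not compared.

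Plagl2 (ENSMUSG00000051413.17) spans bases 153227759 to 153241426 of chromosome 2 (minus strand). Its listed transcript, ENSMUST00000056924.13, is 1 of 2 annotated ones, has 3 exons and 5485 bases, and codes in exons 2 and 3. Of these bases 264 are 5' UTR, 1491 are coding with the stop codon and 3730 are 3' UTR. The other annotated transcript, ENSMUST00000109795.1, starts further downstream, at 153237908, has a coding part of the same length and was not analysed here. The values of Plagl2 are thus those assigned to the transcript from the upstream start. Whether RNA from the other start added to them was not tested.

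Plagl2 had 1.40, 1.59 and 1.64 FPKM in the HFD2D libraries of replicates 1, 2 and 3, against 7.23, 5.97 and 6.24 FPKM in the HFD1D libraries. These are levels per length of transcript. All HFD2D values lay in a narrow band far under every HFD1D value, and the groups did not overlap. The HFD2D mean was 23.8% of the HFD1D mean, and the log2 fold change of FPKM + 1 was -1.55. The coefficient of variation between libraries was 8.05% in HFD2D and 10.3% in HFD1D. By rank within each library, 19.01% to 22.95% of the 14000 genes stood below Plagl2 in HFD2D testes and 49.9% to 53.1% in HFD1D testes. Plagl2 thus stood near the middle of the expressed genes in HFD1D and well below it in HFD2D.

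**Figure D1:**
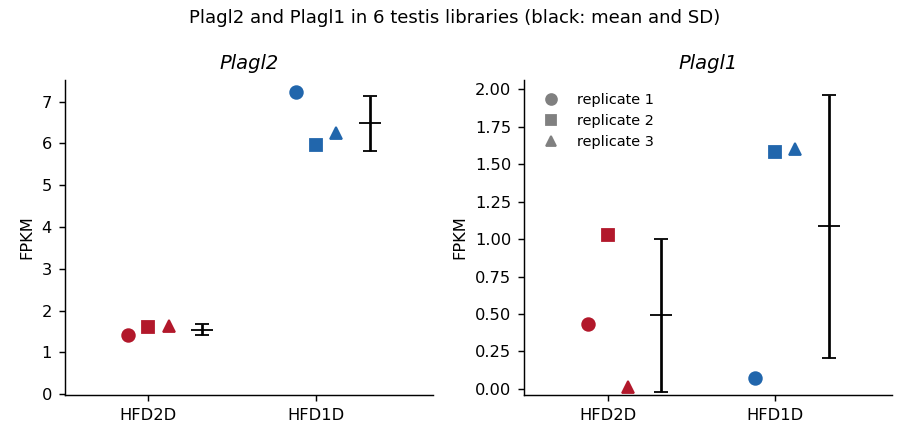
FPKM of Plagl2 (left) and Plagl1 (right) in each library, with HFD2D in red and HFD1D in blue, symbols for the replicates, and the group mean with its SD in black (n = 3 each). Plagl2 libraries of HFD2D sit between 1.40 and 1.64 FPKM, all below the HFD1D libraries at 5.97 to 7.23, while the Plagl1 libraries of both groups overlap.

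This separation led to the choice of Plagl2. In a screen of these same values (limma with Benjamini-Hochberg adjustment at 0.05), 1 of 13769 genes, 0.00726%, was called, and it was Plagl2, so the call restates the choice. The count was 0 with no filter on low values, with a block for replicate number, by the adjusted F-test, and without HFD1D replicate 1, HFD1D replicate 3 or HFD2D replicate 2. The genes just outside the threshold had higher values in HFD2D. These were the uncharacterised 0610030E20Rik, with 4.08 ± 0.257 FPKM in HFD2D and 0.704 ± 0.214 in HFD1D, and Dnal1, a dynein light chain, with 24.5 ± 2.35 FPKM in HFD2D and 11.2 ± 0.311 in HFD1D (SD, n = 3 each). Of all genes tested 5 had a more negative log2 fold change than Plagl2. Without any 1 library the log2 fold change of Plagl2 ran from -1.60 to -1.48.

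Plagl1 (ENSMUSG00000019817.18) spans bases 13060504 to 13131694 of chromosome 10 (plus strand). Its listed transcript, ENSMUST00000121646.7, is 1 of 25 annotated ones, of which 7 are protein-coding, and it has 6 exons and 5260 bases, of which 2115 are coding with the stop codon. The Plagl1 transcript had 0.436, 1.03 and 0.0115 FPKM in HFD2D replicates 1, 2 and 3, against 0.0717, 1.58 and 1.60 FPKM in HFD1D. Both groups held a library near 0, and the groups overlapped. Means were 0.491 ± 0.510 FPKM in HFD2D and 1.09 ± 0.879 FPKM in HFD1D (SD, n = 3 each), so the SD was about as large as the mean, with coefficients of variation of 103.7% in HFD2D and 80.9% in HFD1D. On the scale of log2(FPKM + 1) the pooled SD within groups was 0.63, and the log2 fold change was -0.43. It was -0.86 without HFD1D replicate 1, -0.22 without HFD1D replicates 2 or 3 in turn, -0.68 without HFD2D replicate 2 and -0.18 without HFD2D replicate 3. Only 1.5% to 23.4% of genes stood below Plagl1 in any library. With 1 of 25 transcripts listed, a low value in a library may be low for the gene or for this transcript, which was not tested.

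The levels of the 2 genes did not run together within groups. HFD1D replicate 1 had the highest Plagl2 and the lowest Plagl1 of its group, and HFD2D replicate 3 likewise. Per length, which FPKM allow, Plagl2 exceeded Plagl1 in all 6 libraries. Across the 6 libraries their log2 levels had a Pearson's r of 0.31, given as a description, since the libraries share the group difference.

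The genes beside each member were examined next, since neighbours share a chromosomal setting. The 3 nearest listed genes on each side gave 18 genes, of which 17 passed the filter on low values (a mean above 0.5 FPKM in a group) and were tested. Of the 17 tested 0 passed by limma (adjusted p from 0.358 to 0.973), and 0 passed by the adjusted F-test. The study's thresholds, an unadjusted F-test p under 0.05 and a fold change over 1.2, were applied here to log2(FPKM + 1). By these, 1 of the 17 was called, against 4.82% of all genes tested. A limma unadjusted p under 0.05 was reached by 5, all with lower mean values in HFD2D, while 11.9% of all genes tested reached it, 6.59% with lower and 5.31% with higher values. The groups did not overlap for 5, all with lower values in HFD2D, against 19.4% of all genes in either direction and 11.0% in that direction. The median log2 fold change of the 17 was -0.066, against 0.00069 over all genes tested.

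Around Plagl2 the nearest gene was Pofut1, which encodes the enzyme that puts O-fucose on Notch receptors. Pofut1 starts 106 bases from the upstream start of Plagl2 and runs the other way, so the genes stand head to head. Pofut1 had 0.868, 0.625 and 0.375 FPKM in HFD2D, against 0.635, 0.719 and 0.919 FPKM in HFD1D, and the groups overlapped. Its log2 fold change was -0.12 (95% confidence interval -0.48 to 0.23, limma adjusted p = 0.746), with 1 of 8 annotated transcripts listed. At this low level, adding 1 to each FPKM shrinks any difference. Kif3b and Asxl1, next on the same side, also had overlapping groups. Kif3b, a kinesin motor of cilia and flagella, had 46.3, 47.5 and 45.3 FPKM in HFD2D and 48.3, 47.0 and 51.7 in HFD1D, a log2 fold change of -0.077 (-0.22 to 0.068). Asxl1, a chromatin regulator, had 27.2, 27.8 and 27.0 FPKM in HFD2D and 28.4, 23.7 and 25.1 in HFD1D, a log2 fold change of 0.089 (-0.10 to 0.28). Ttll9, a tubulin-modifying enzyme of the sperm tail, had 38.1, 57.7 and 36.6 FPKM in HFD2D, against 53.99, 83.7 and 74.5 FPKM in HFD1D. HFD2D replicate 2 overlapped the HFD1D range, and the log2 fold change was -0.68 (-1.22 to -0.13, limma adjusted p = 0.390). Tm9sf4 and Pdrg1 had log2 fold changes of 0.50 (-0.49 to 1.50) and -0.066 (-0.41 to 0.27). That of Tm9sf4 was 0.17 without HFD2D replicate 1 and 0.99 without HFD2D replicate 2.

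**Figure D2:**
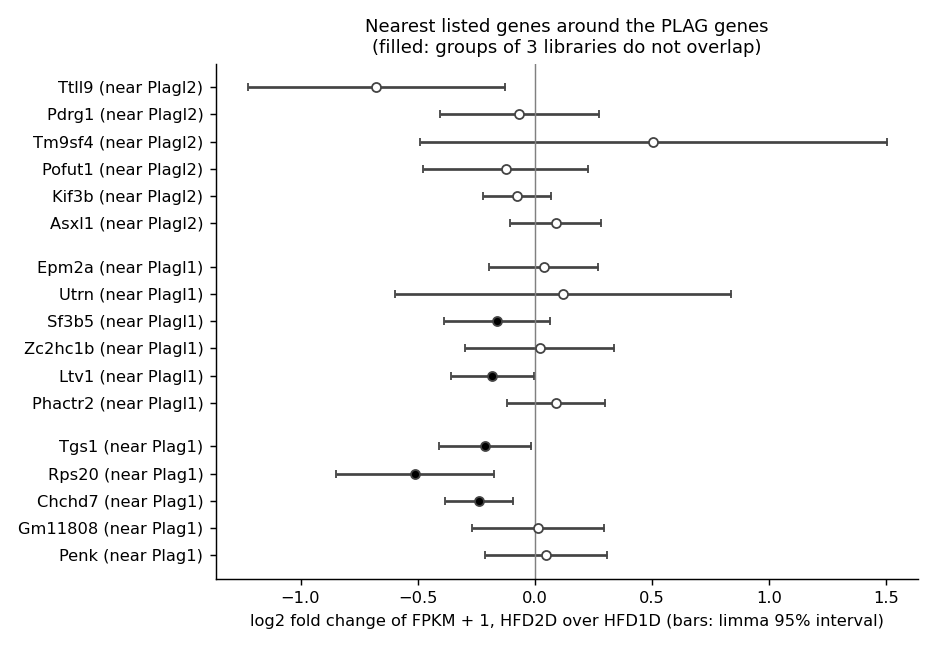
Log2 fold change of FPKM + 1 (HFD2D over HFD1D) of the 17 tested genes nearest to Plagl2, Plagl1 and Plag1, in chromosomal order within each block, with limma 95% confidence intervals as bars. The 5 filled points, Sf3b5, Ltv1, Tgs1, Rps20 and Chchd7, are genes whose groups did not overlap, and all lie below 0.

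Around Plagl1 the groups did not overlap for 2 of the 6 neighbours, both lower in HFD2D, while 11.0% of all genes tested were separate in that direction. Ltv1, a factor for assembly of the small ribosomal subunit, had 30.6, 32.2 and 29.6 FPKM in HFD2D and 32.6, 35.2 and 37.5 FPKM in HFD1D, a log2 fold change of -0.18 (-0.36 to -0.0039, limma adjusted p = 0.415). Sf3b5, a splicing factor subunit, had 2.11, 2.21 and 2.21 FPKM in HFD2D and 2.57, 2.79 and 2.30 FPKM in HFD1D, a log2 fold change of -0.16 (-0.39 to 0.066). For both, the highest HFD2D library stood close under the lowest HFD1D library. Utrn, Epm2a, Zc2hc1b and Phactr2 had log2 fold changes from 0.021 to 0.12 with overlapping groups.

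Around Plag1 the nearest gene was Chchd7, a small mitochondrial protein, which starts 464 bases away and runs the other way. Chchd7 had 36.1, 36.6 and 38.8 FPKM in HFD2D, against 44.0, 42.4 and 45.6 FPKM in HFD1D. All HFD2D values lay below all HFD1D values, with a log2 fold change of -0.24 (-0.38 to -0.091, limma adjusted p = 0.358). Rps20, a protein of the small ribosomal subunit, had 23.6, 24.4 and 20.5 FPKM in HFD2D and 27.0, 34.6 and 38.2 FPKM in HFD1D, a log2 fold change of -0.51 (-0.85 to -0.17, limma adjusted p = 0.358). Tgs1, which caps small nuclear RNAs with a trimethylguanosine, had 2.52, 2.58 and 2.61 FPKM in HFD2D and 3.24, 3.02 and 3.15 FPKM in HFD1D, a log2 fold change of -0.21 (-0.41 to -0.016, limma adjusted p = 0.399). For all 3 genes every HFD2D library stood below every HFD1D library, while 11.0% of all genes tested were separate in that direction. None of the 3 passed the adjusted threshold. Gm11808 and the opioid precursor gene Penk had log2 fold changes of 0.013 and 0.047, and the kinase gene Lyn, at most 0.760 FPKM in any library, did not pass the filter.

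Genes tied to the family by earlier work were then counted. They made up 5 lists with 62 different genes, of which 41 were listed and tested. Of the 41 tested 0 passed by limma in either direction (adjusted p from 0.329 to 0.993), 0 passed by the adjusted F-test, and 7 had a limma unadjusted p under 0.05, while 11.9% of all genes tested did. Mean log2 values in HFD2D were higher for 25 and lower for 16, against 6907 and 6862 of all genes tested, with a median log2 fold change of 0.017. Groups did not overlap for 4 genes with higher and 5 with lower values in HFD2D, against 8.34% and 11.0% of all genes tested in these directions.

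Among reported targets of PLAG1 or PLAGL2, 9 of 14 were tested. In HFD2D the mean was higher for 6 of them and lower for 3, and the median log2 fold change was 0.027. Smarcd3, a subunit of the SWI/SNF chromatin remodelling complex, had 1.33, 1.52 and 1.40 FPKM in HFD2D, against 0.675, 0.607 and 0.839 FPKM in HFD1D. The groups stood well apart, with HFD2D the higher one, a log2 fold change of 0.50 (0.26 to 0.75) and a limma adjusted p of 0.329.

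Igf2, which stands in 4 of the 5 lists, was named after its values were seen. It had 6.43, 3.28 and 2.67 FPKM in HFD2D, against 2.92, 0.0383 and 1.03 FPKM in HFD1D. The log2 fold change of 1.28 had a wide interval (0.033 to 2.52, limma adjusted p = 0.415), and HFD1D replicate 1 overlapped the HFD2D range. The highest value came from HFD2D replicate 1, where the placental and epididymal markers were also highest. Without that library the log2 fold change of Igf2 was 0.97 (limma adjusted p = 0.618), and without HFD1D replicate 2, the library at 0.0383 FPKM, it was 0.79. It was 1.75 (limma adjusted p = 0.177) without HFD1D replicate 1, the library that overlapped HFD2D, and 2.34 (limma adjusted p = 0.459) with a pseudocount of 0.1 in place of 1. In HFD1D replicate 2 the Leydig cell markers summed to 249 FPKM, against 464 to 567 FPKM in the other libraries. That list was picked after its values were seen. The part of other tissues or of cell makeup in the Igf2 values was not tested. Without HFD2D replicate 1 the log2 fold change of Plagl2 was -1.51 and that of Plagl1 was -0.43, both close to the values with all libraries.

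**Figure D3:**
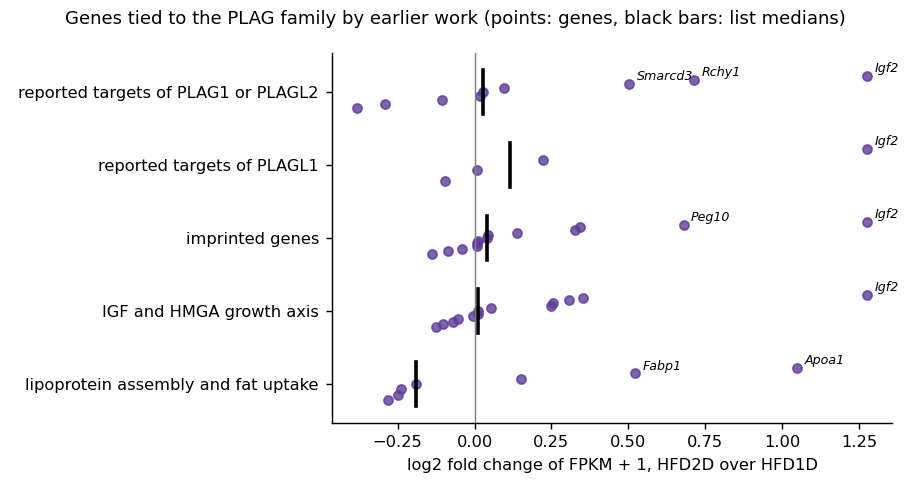
Log2 fold change of FPKM + 1 (HFD2D over HFD1D) of each tested gene in the 5 lists of genes tied to the PLAG family, with 1 point per gene and a black bar at the median of each list. Genes beyond 0.45 in size are named, Igf2 appears in 4 lists, and the medians run from -0.19 to 0.11.

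Of the 10 reported targets of PLAGL1, 4 were tested and 3 had higher mean values in HFD2D (median log2 fold change 0.11). Cdkn1a, the cell-cycle inhibitor p21, had 3.98, 4.09 and 3.43 FPKM in HFD2D and 3.39, 3.31 and 2.74 FPKM in HFD1D, which did not overlap by a narrow margin, a log2 fold change of 0.22 (-0.039 to 0.48). Of 19 imprinted genes 13 were tested, 10 with higher and 3 with lower mean values (median 0.040). Sgce, a sarcoglycan, had 5.07, 4.60 and 4.94 FPKM in HFD2D and 3.60, 3.04 and 4.30 FPKM in HFD1D, without overlap (log2 fold change 0.34, 0.054 to 0.63, limma adjusted p = 0.390). Mest had lower values without overlap, at 0.703 ± 0.0689 FPKM in HFD2D and 0.878 ± 0.149 in HFD1D (SD, n = 3 each). Gnas, a G protein subunit gene and the most abundant of the imprinted genes, had 60.5 ± 1.31 FPKM in HFD2D and 58.7 ± 2.03 FPKM in HFD1D (SD, n = 3 each, log2 fold change 0.044, -0.087 to 0.18).

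In the axis of insulin-like growth factors and HMGA proteins, 13 of 14 genes were tested, 8 with higher and 5 with lower mean values (median 0.013). Hmga2, a chromatin protein that acts upstream of PLAG1 in human cells, had 0.648, 0.757 and 0.541 FPKM in HFD2D, against 0.372, 0.351 and 0.433 FPKM in HFD1D. The groups did not overlap, at a low level, with a log2 fold change of 0.25 (0.0041 to 0.49, limma adjusted p = 0.416). Its mean was 0.649 FPKM in HFD2D and 0.385 FPKM in HFD1D, so Hmga2 passed the filter of 0.5 FPKM only through HFD2D. It was also named for its lack of overlap, so the gap and the interval are descriptions. Igf2bp3, an RNA-binding protein and the most abundant gene of this list, had 42.6 ± 1.32 FPKM in HFD2D and 46.6 ± 1.91 FPKM in HFD1D (SD, n = 3 each), also without overlap (log2 fold change -0.13, -0.27 to 0.017).

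Lipoprotein assembly and fat uptake, the process that fails in the gut of mice without Plagl2, had 7 of 12 genes tested, 3 with higher and 4 with lower mean values (median -0.19). The enzymes of the last step of triglyceride synthesis were both lower without overlap. Dgat2 had 49.9, 52.7 and 48.5 FPKM in HFD2D and 57.1, 60.0 and 61.9 FPKM in HFD1D, a log2 fold change of -0.24 (-0.39 to -0.093, limma adjusted p = 0.358). Dgat1 had 10.7, 9.56 and 11.1 FPKM in HFD2D and 14.6, 11.5 and 12.7 FPKM in HFD1D, a log2 fold change of -0.28 (-0.54 to -0.022, limma adjusted p = 0.399). Sar1b, a GTPase of the vesicles that carry lipoproteins, had 11.9, 12.3 and 10.5 FPKM in HFD2D and 14.2, 12.8 and 14.9 FPKM in HFD1D, a log2 fold change of -0.25 (-0.47 to -0.028, limma adjusted p = 0.393). None of these 3 passed over all genes. They were named for their lack of overlap, and 11.0% of all genes tested were separate in that direction. The 3 genes with higher means had overlapping groups and wide intervals. Their log2 fold changes were 1.05 (-1.74 to 3.83) for Apoa1, 0.52 (-0.89 to 1.94) for Fabp1 and 0.15 (-0.19 to 0.49) for Cd36. Mttp was lower with overlap, at -0.19 (-0.41 to 0.033).

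The genes whose pattern over the 6 libraries was most like that of Plagl2 were taken by Pearson's r of log2(FPKM + 1) among 12019 genes with a mean of at least 1 FPKM. Of the 5 highest, 4 are given here: Copb1, a coat protein of Golgi vesicles (r = 0.998), Xpo5, the exporter of microRNA precursors (0.992), Tgs1 (0.991) and Aurka, a kinase of cell division (0.988). Their HFD2D means were 87.2%, 89.1%, 81.9% and 83.1% of their HFD1D means, so the size of the difference was far from that of Plagl2. The shared direction follows from picking genes by r with Plagl2, whose groups stand far apart. With 6 libraries in 2 groups, 100 genes had an r above 0.95 with Plagl2, and these values are descriptions. Tgs1 is also 1 of the neighbours of Plag1. For Plagl1 the most alike among 12020 genes were Kctd2, the kinesin Kif15, the prolactin family gene Prl3c1, the cAMP phosphodiesterase Pde7a and Gm20837 (r from 0.987 to 0.989), and 49 genes had an r above 0.95.

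**Figure D4:**
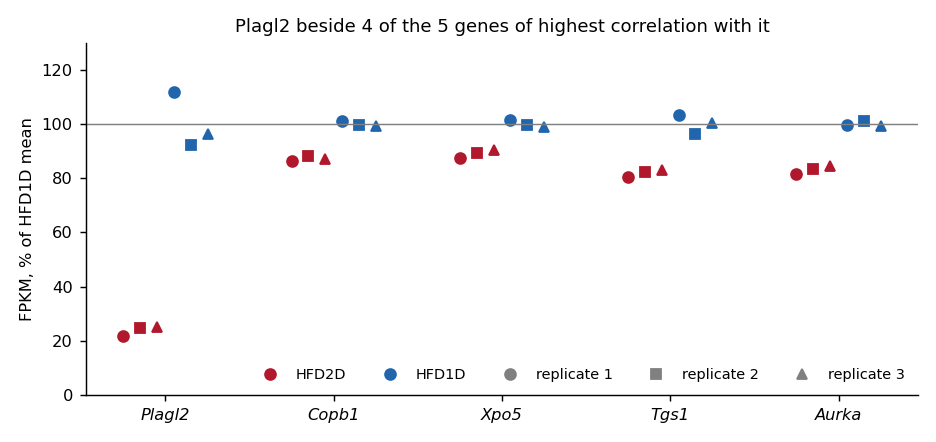
FPKM of Plagl2 and of 4 of the 5 genes of highest correlation with it, each as a percentage of its own HFD1D mean, with HFD2D libraries in red, HFD1D libraries in blue and symbols for the replicates. Plagl2 averages 23.8% in HFD2D, and the other genes average 81.9% to 89.1%.

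Markers of 13 cell types and tissues were summed beside these values. The listed markers of Sertoli cells, Leydig cells, spermatogonia, spermatocytes and spermatids were all above 0 FPKM in each library. The summed level was lower in HFD2D without overlap for spermatogonia (102 to 106 FPKM in HFD2D, 111 to 119 in HFD1D, 6 of 8 markers negative) and spermatocytes (527 to 569 FPKM in HFD2D, 587 to 632 in HFD1D, 6 of 7 negative). It was higher without overlap for round spermatids (678 to 733 FPKM in HFD2D, 661 to 670 in HFD1D, 3 of 6 positive) and endothelial cells (4.94 to 5.02 FPKM in HFD2D, 4.06 to 4.78 in HFD1D, 4 of 5 positive). The HFD2D mean was 90.9%, 89.0%, 106% and 115% of the HFD1D mean for these lists, against 23.8% for Plagl2. The other 9 lists overlapped. Of these, elongating spermatids had 6 of 6 tested markers negative. All tested markers were positive for peritubular myoid cells (6 of 6), placenta (8 of 8) and adipocytes (1 of 1), and the remaining lists were mixed. In bulk tissue, fewer cells of a type and less RNA per cell cannot be told apart, and the part of the cell makeup in the Plagl2 values was not tested. For Plagl1, the summed elongating spermatid markers were 14963, 13995 and 14221 FPKM in HFD2D replicates 1, 2 and 3 and 12214, 17310 and 17501 FPKM in HFD1D replicates 1, 2 and 3. HFD1D replicate 1 was lowest and HFD1D replicates 2 and 3 highest in this sum, and HFD1D replicates 2 and 3 were also the highest in Plagl1. Within HFD2D the order differed, since replicate 2 had the lowest sum and the highest Plagl1. This list was picked among the 13 after its values were seen, and its part was not tested.

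Promoters were searched for a form of the PLAG binding motif, GGGGC followed by 6 to 8 bases of any kind (N) and GGG, on both strands. It occurred in 15.9% of 32851 RefSeq promoters (GRCm38.p6), each of 250 bases before and 50 bases after a start. The promoters of Plagl2 and Plag1 were not analysed here as entries of their own. The Plagl1 promoter held 0 matches. The promoter of Pofut1, the head-to-head neighbour of Plagl2, held 1 on each strand. That stretch (chr2:153241282-153241581) also holds the upstream start of Plagl2, at 153241426. The promoter of Pdrg1 held 2, and the promoters of the other 9 neighbours in the table held 0. These were neighbours of Plagl2 and Plagl1, and no promoter of a Plag1 neighbour or of Sf3b5 was searched. Of the reported targets of PLAG1 or PLAGL2 8 had a promoter in the table and 3 held the motif. It was held by 4 of 7 reported targets of PLAGL1, 3 of 15 imprinted genes, 6 of 12 genes of the IGF and HMGA axis and 2 of 8 lipoprotein genes with a promoter there. In these list counts a gene held the motif if any of its promoters matched. The 15.9% is instead a share of single promoters, so the list counts cannot be set against it. A match is a stretch of letters and not a shown binding site.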

How the data were processed

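Testis RNA of 6 mice was sequenced, 3 libraries per group, with groups taken from the sample titles. The authors selected poly(A) RNA, made stranded libraries, compared reads with known transcripts in StringTie and took abundances from Ballgown. The deposited values are FPKM for each transcript and library, on mm10. No aligner or version is stated in what was read here. Read depth is unknown, so no counting interval is given.

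Identifiers were matched to GENCODE M21 (27018 of 27120, 99.6%), and FPKM were summed over the listed transcripts of a gene. For 13769 genes with a mean above 0.5 FPKM in a group, log2(FPKM + 1) was tested with limma 3.58.1 in R 4.3.3 (eBayes with trend, two-sided, group as the only factor, Benjamini-Hochberg at 0.05). Intervals are limma's 95% intervals. P-values measure the spread between these libraries. Sequences came from GENCODE and were compared with Biopython 1.88, and motif shares from RefSeq promoters. Tables were made with Python 3.11.15.

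Scripts were tested on simulated data. The members and lists were chosen with earlier results of these data known. Text names all neighbours (3 a side) and, per list, up to 4 genes past the threshold or without overlap plus the most abundant, and 5 most alike genes per member. Of the genes this rule takes, 2 are not reported here. Alternatives were a pseudocount of 0.1, 2 rescalings, other filters, an F-test, limma with no trend, a block for replicate number, the study's thresholds, a ratio of means and leaving out each library.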

Additional observations from a re-analysis of the deposited data

How the results depend on the processing

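The log2 fold change of Plagl2 was -1.999 with a pseudocount of 0.1 and -2.07 as a ratio of mean FPKM, against -1.55 as described, since adding 1 to low values shrinks a difference. That of Plagl1 was -1.14 as a ratio of mean FPKM, against -0.43, and -0.86 to -0.18 with 1 library left out. Rescaling the libraries by median ratios or quantiles moved both by less than 1 SD between libraries.

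Of all genes 1 passed as described, 3 with median-ratio rescaling, 3 with a filter at a mean of 1 FPKM, 3 without trend, 0 without a filter, 0 with the adjusted F-test and 0 to 3 with 1 library left out. The study's thresholds, applied here to log2(FPKM + 1) of gene sums, gave 663 genes (4.82%), with 2 of the 41 list genes and 1 of the neighbours. The study ran its F-test in Ballgown, so this is not its own count of genes. The replicate number as a block gave 0 genes, and 0 list genes and 0 neighbours. Same-numbered libraries did not deviate together (r of -0.076, -0.0018 and -0.16 for replicates 1, 2 and 3). The deviations of 3 libraries from their group mean sum to 0, so this check cannot decide whether the numbers pair them. Under every other alternative run, 0 list genes and 0 neighbours passed.

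For 29 tested neighbours and list genes, 392 of 403 values under the alternatives kept their direction and 0 passed the threshold. With a pseudocount of 0.1, Smarcd3 had a log2 fold change of 0.92 and Hmga2 of 0.62. The sign of 6 genes near 0 turned. That of Epm2a was -0.012 with quantile normalization. With 1 library left out, Pdrg1 ran from -0.18 to 0.030, Utrn from -0.18 to 0.31, Zc2hc1b from -0.054 to 0.16, Gm11808 from -0.11 to 0.082 and Penk from -0.024 to 0.15. With 3 libraries a group, unknown depth and 1 listed transcript each for Plagl2 and Plagl1, shifts between transcripts of these genes cannot be seen.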
